A study of Xenopus tropicalis with 3 samples.

Results

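The genes described here build the early secretory pathway: targeting and translocation into the endoplasmic reticulum (ER), folding there, and transport by COPII and COPI vesicles. They were chosen by gene name. A gene is a member if its name starts with sec and a digit (other than sec14l), ssr, pdia, spcs, srp and a digit, copa, copb, cope, copg, copz, tmed or kdelr, or is xbp1, calr, canx, p4hb, ern1, ern2, creb3l1 or creb3l2. This rule found 59 of the 17647 genes in the table, in 103 of its rows, and used no measured value. The names ern1 and creb3l2 were not analysed here. The rule also takes in ssrp1, a subunit of the histone chaperone FACT, which shares only its first letters with the ssr genes.

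The tissue was the animal cap, prospective epidermis cut from Xenopus tropicalis embryos. Caps at NF10.5 were gastrulae, those at NF16 neurulae and those at NF24 tailbud embryos, in the staging of Nieuwkoop and Faber. The design compares genes and splice isoforms between these stages. The labels name no treatment, strain or genotype, and give 3 biological replicates per stage, but the table holds 1 value per stage. Each value is therefore printed as the authors' mean in FPKM (fragments per kilobase of transcript, scaled to library size), with no error, and no difference between stages could be tested.

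Proteins bound for secretion or membranes are recognised as they leave the ribosome by the signal recognition particle, which brings them to the Sec61 channel of the ER. Signal peptidase removes the signal peptide, lectins and protein disulfide isomerases assist folding, and COPII vesicles carry folded cargo to the Golgi, while COPI vesicles bring ER residents back. In the tadpole the animal cap forms a mucus-secreting, ciliated epidermis, whose secretory cells release mucins and other proteins through this pathway. Xbp1, Atf6 and their relatives adjust the pathway's genes when unfolded protein accumulates in the ER.

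The members as a sum took a larger share of all FPKM after gastrulation, but their parts went different ways. Summed over the 59 members, the level was 5262, 7959 and 7014 FPKM at the successive stages. As shares of all FPKM these are 0.909%, 1.497% and 1.39%. The Sec61 channel, the TRAP complex, the lectins, COPI and the tmed genes held larger shares at NF16 than at NF10.5. The signal recognition particle and signal peptidase held smaller ones. Pathway genes outside the naming rule, described below by list, held larger shares at NF16 in some lists and smaller ones in others. In bulk tissue, fewer cells of a type and less RNA per cell cannot be told apart.

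A gene was compared if it reached 1 FPKM at any stage, which left 11771 genes and 54 members. The other members, copz2, pdia2, sec16b, sec22c and tmed6, stayed below 0.3 FPKM throughout. A call, higher or lower, needs a difference in log2(FPKM + 1) of at least 1 in size. At NF16 against NF10.5, 11 of 54 members were called higher, where 20.9% of all genes compared were, and 7 were called lower, where 39.0% were. In either direction this is 18 members, against 59.9% of all genes. As deposited, the share of members called higher is thus near the background, and the share called lower is below it. The median log2 difference was 0.24 for the members and -0.57 for all genes compared, and 39 of 54 members lay above the latter. The split of calls depends on scaling. Median-of-ratios scaling moves the median of all genes by 0.68. It gave 28 members higher and 2 lower, and 3558 (30.2%) and 2418 (20.5%) of all genes.

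At NF24 against NF16, 1 of 54 members was called higher, where 6.91% of all genes were, and 0 were called lower, where 4.84% were. In either direction the share of all genes was 11.7%. The 11 and 7 members called in the first step were not called in the second, and 35 members were called in neither. The median log2 difference was -0.02 for the members and 0.12 for all genes. At NF24 against NF10.5, 15 members were called higher, where 25.4% of all genes were, and 13 lower, where 36.9% were, and 62.2% of all genes were called in either direction. The comparisons share stage means, so this last contrast is the sum of the other two.

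**Figure D1:**
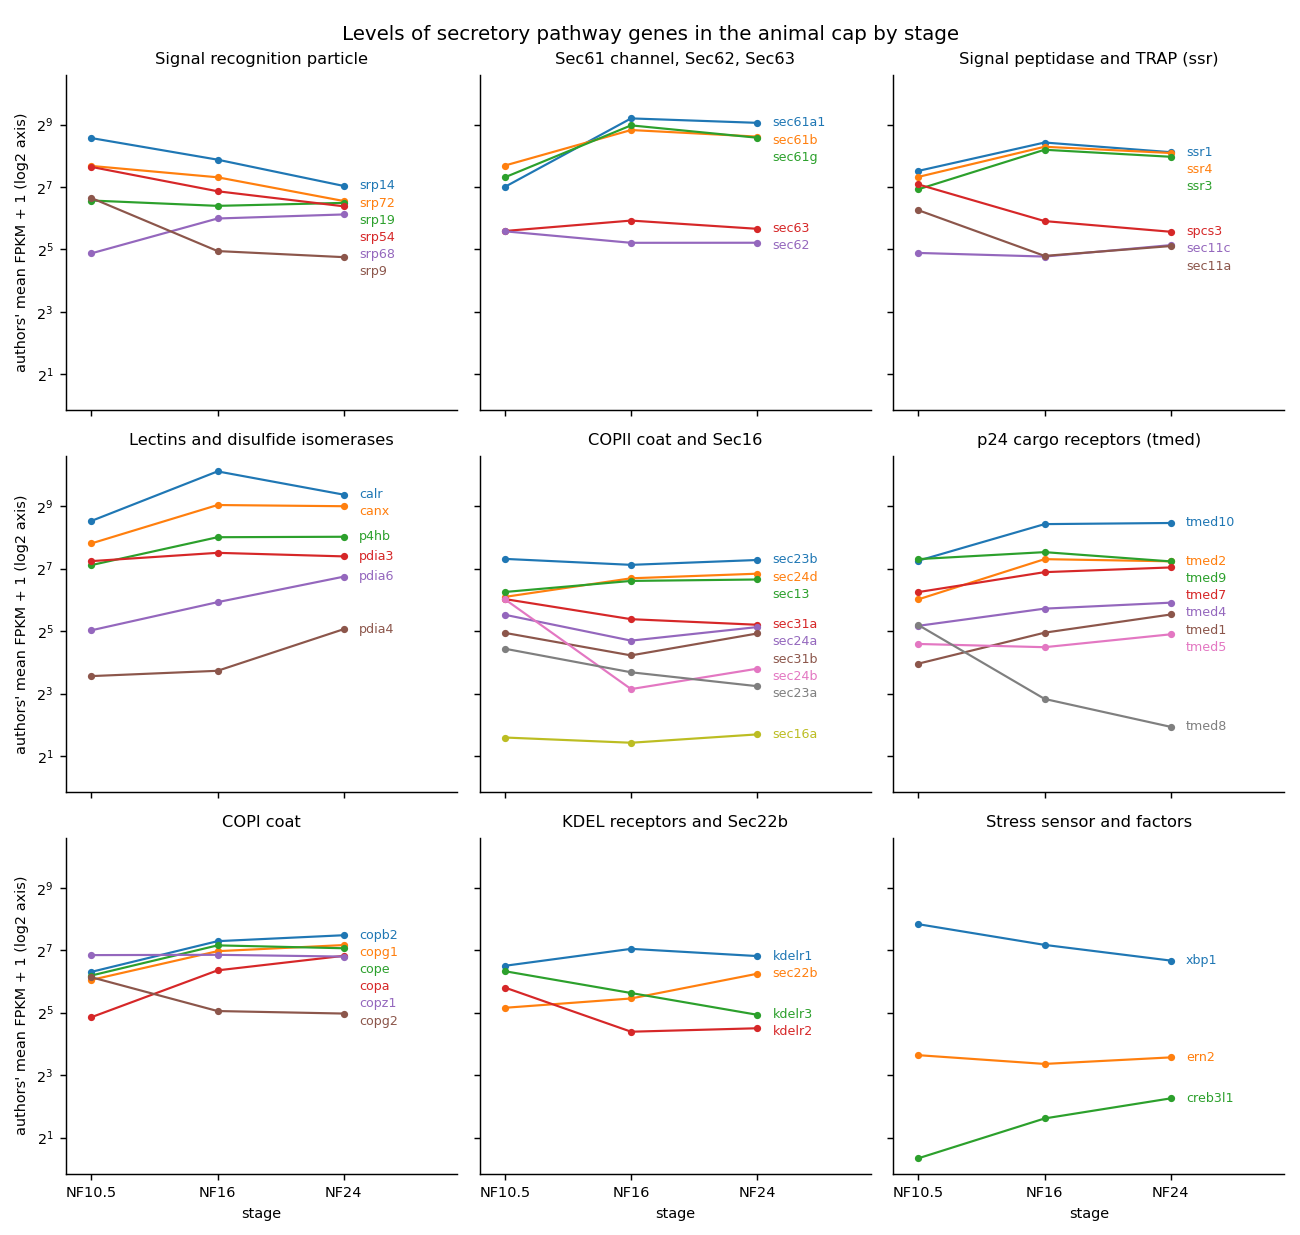
Authors' mean FPKM + 1 on a log2 axis (y) at each stage (x) for 53 of the 54 members compared, in panels by role, with 1 line per gene and no error bars because the table has none; ssrp1 is left out. The Sec61 subunits stand between 381 and 586 FPKM at NF16 and NF24, while tmed8 and sec24b are far below their NF10.5 values.

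The signal recognition particle is an RNA with proteins of which 6 were measured, and their summed level was 1002, 683 and 489 FPKM. The Alu-domain proteins, which slow translation until the ribosome docks, were srp14 with 378, 234 and 130.04 FPKM and srp9 with 99.3, 29.9 and 26.0 FPKM at the successive stages. The log2 difference of srp9 was -1.70 at NF16 against NF10.5, a call that was lost under median-of-ratios scaling (-0.90). That of srp14 was -0.69, and -1.53 over the whole course. The subunit that binds the signal peptide, srp54, had 199, 115.5 and 82.4 FPKM.

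The srp68 and srp72 proteins form a heterodimer on the particle's RNA, and their levels drew together. The levels of srp68 were 28.4, 62.6 and 68.6 FPKM, a log2 difference of 1.12 at NF16 against NF10.5. Those of srp72 were 203, 158 and 92.8 FPKM, with -0.36 in the same comparison. The assembly factor srp19 had 93.9, 83.2 and 89.0 FPKM. Among the 6 proteins the highest level was 13.3 times the lowest at NF10.5 and 5.004 times at NF24. Of these subunits srp68 was the only member called higher over the whole course, while srp9, srp14, srp54 and srp72 were called lower. Of these lower calls only that of srp9 held under median-of-ratios scaling, where srp14 had -0.86, srp54 -0.59 and srp72 -0.45, and srp72 also lost it when stages were rescaled to equal sums (-0.93) and under quantile normalization. The median for the 6 was -0.53 at NF16 against NF10.5 and turned to 0.28 under median-of-ratios scaling.

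The channel itself held the largest difference toward NF16 of any member name. The pore subunit sec61a1 had 127, 586 and 530.8 FPKM, a log2 difference of 2.19 in the first step. The small subunits sec61g, with 158, 502 and 381 FPKM, and sec61b, with 205, 452 and 390.7 FPKM, differed by 1.66 and 1.14. All 3 were therefore called higher at NF16, although sec61b missed the call under quantile normalization (0.97). At NF10.5 sec61a1 was the lowest of the 3 and at the later stages the highest. The partner proteins sec62 and sec63, which serve post-translational import, were not called in any comparison as deposited. Their levels were 46.9, 36.1 and 36.2 FPKM for sec62 and 47.2, 59.8 and 49.6 FPKM for sec63. Under median-of-ratios scaling sec63 passed the size of a call at NF16 (1.13). Between the channel and these partners the gap in level widened, from 4.37 times between the highest and lowest of the 5 genes at NF10.5 to 16.2 times at NF16.

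The TRAP complex, which sits beside the channel and helps some signal peptides to insert, had similar values in its 3 measured subunits. At the successive stages ssr1 had 182, 343 and 276 FPKM, ssr3 had 121, 292 and 249 FPKM, and ssr4 had 159, 312 and 271 FPKM. Their log2 differences at NF16 were 0.91, 1.26 and 0.97, so that only ssr3 was called as deposited. The other subunits, ssr1 and ssr4, passed the size of a call under median-of-ratios scaling (1.71 and 1.77). They also did when stages were rescaled to equal sums (1.03 and 1.09). All 3 lay above the median of all genes in that step and below it in the next, where they differed by -0.31, -0.23 and -0.20. The spread between the highest and the lowest of them was 1.51 times at NF10.5 and 1.11 times at NF24. The ssr2 subunit was not analysed here.

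Signal peptidase, which cuts off the signal peptide just behind the channel, had lower values later. Its alternative catalytic subunits are sec11a, with 75.5, 26.75 and 33.5 FPKM, and sec11c, with 28.6, 26.3 and 34.3 FPKM. The accessory subunit spcs3 had 134.5, 59.1 and 46.4 FPKM. At NF16 sec11a differed by -1.46 and spcs3 by -1.17, both called lower, and sec11c by -0.12. Neither of the calls held under median-of-ratios scaling (-0.67 and -0.37) or quantile normalization (-0.92 and -0.89). The sec11c share of the sec11 sum was 27.5% at NF10.5 and 49.6% at NF16.

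**Figure D2:**
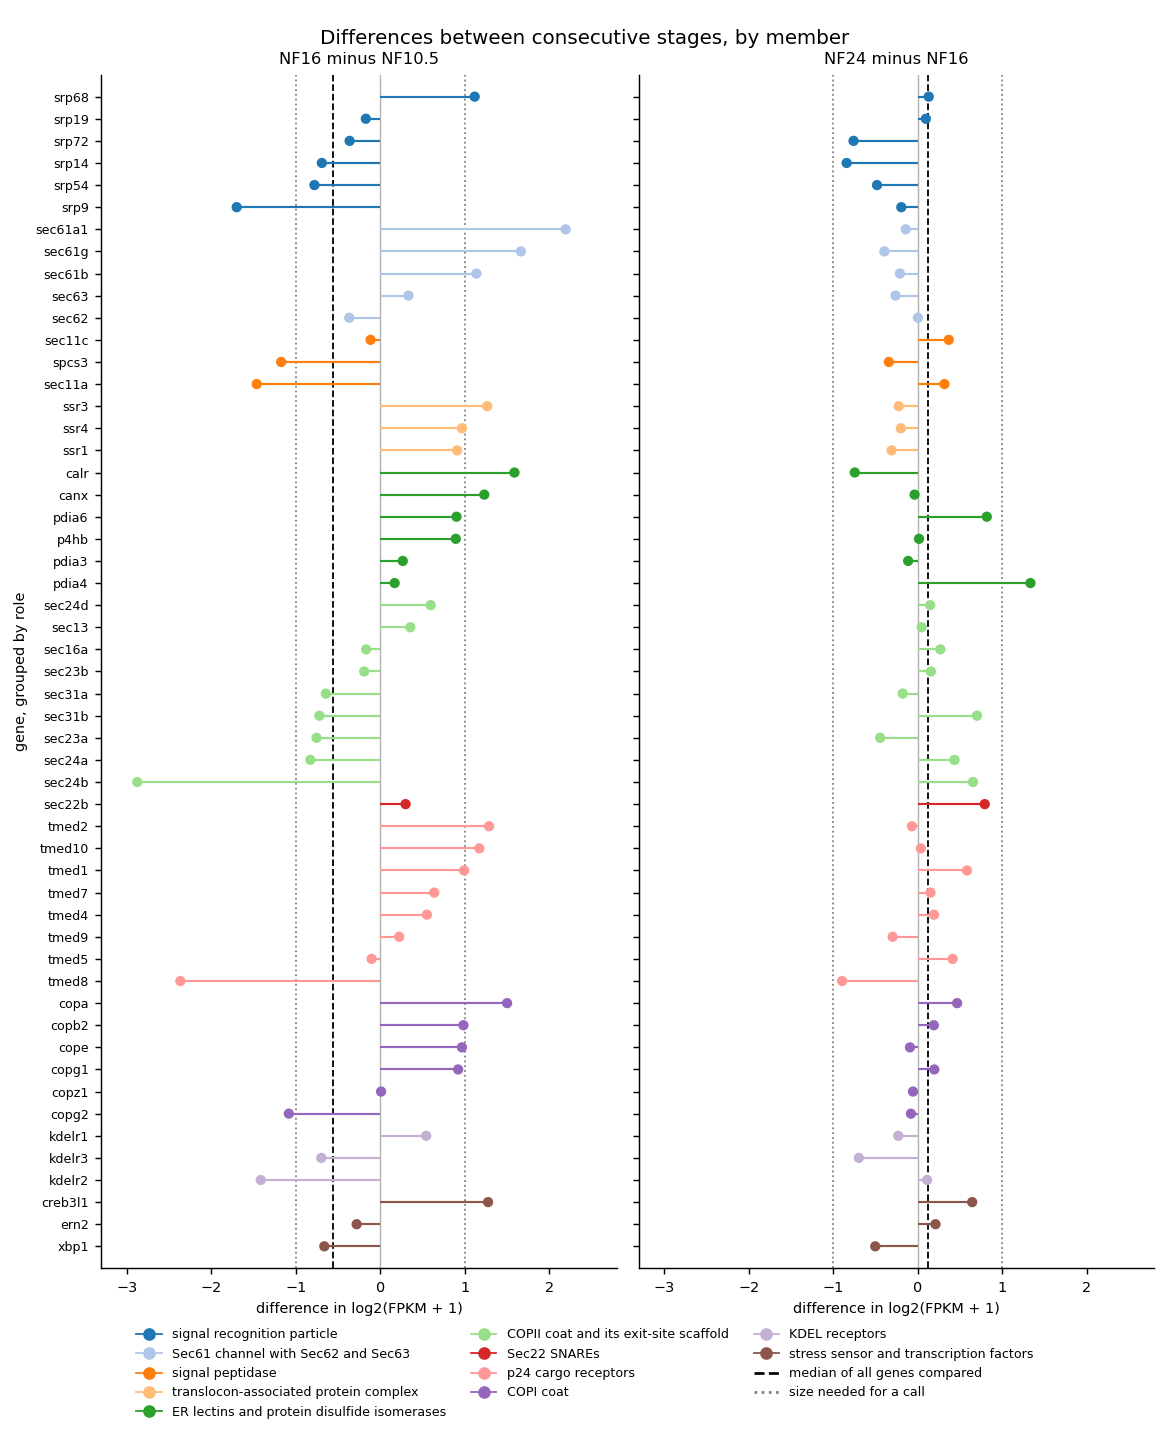
Difference in log2(FPKM + 1) (x) between consecutive stages for 53 members (y), coloured by role. The dotted lines mark the size needed for a call and the dashed line the median of all 11771 genes. In the first step sec61a1 reaches 2.19 and sec24b -2.88, and in the second step only pdia4 passes the dotted line, at 1.33.

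Folding genes did not share a common course. The lectin chaperones and the main disulfide isomerase had most of their difference in the first step. Calreticulin, calr, the soluble lectin that holds glycoproteins until they fold, was the most abundant member after gastrulation with 368, 1106 and 660 FPKM. Its membrane-bound relative calnexin, canx, had 223, 524 and 510.02 FPKM. They differed by 1.59 and 1.23 at NF16 against NF10.5 and were called higher under each other scaling and pseudocount tried. Among the disulfide isomerases, p4hb had 137, 256 and 258 FPKM (0.89), and pdia3, the partner of both lectins, had 150.1, 181 and 167 FPKM (0.27). Under median-of-ratios scaling p4hb (1.70) and pdia3 (1.07) passed the size of a call.

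The isomerases pdia4 and pdia6 had higher values at the last stage. At the 3 stages pdia4 had 10.8, 12.2 and 32.4 FPKM, with a log2 difference of 0.17 in the first step and 1.33 in the second. It was the only member called between NF16 and NF24, and the call held under the 3 other scalings and the 2 other pseudocounts. The corresponding values of pdia6 were 31.5, 59.8 and 106 FPKM, 0.90 and 0.82, so that neither step reached the call but the sum did (1.72). Its first step passed the call under median-of-ratios scaling (1.69), quantile normalization (1.41) and rescaling to equal sums (1.03). In the second step calr differed by -0.75. Of the 6 folding members compared, 6 had a difference above 0 in the first step and 3 in the second.

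The COPII coat, which buds vesicles from the ER, held the lowest difference of the first step. Its summed level was 526, 441 and 489 FPKM, and 1 of 9 members compared was called at NF16. The cargo-selecting subunit sec24b had 63.8, 7.83 and 12.9 FPKM, a log2 difference of -2.88. It stayed called under the 3 other scalings, the 2 other pseudocounts and the highest transcript only. Another cargo adaptor, sec24a, had 44.95, 24.9 and 33.96 FPKM (-0.83). The third name, sec24d, had 67.3, 102 and 113 FPKM (0.60), but this sum mixes different transcripts. The inner coat gene sec23b was the most abundant COPII member with 158, 138 and 154 FPKM. Its paralog sec23a had 20.6, 11.8 and 8.41 FPKM and was called lower over the whole course (-1.20), a call lost under median-of-ratios scaling (-0.57), quantile normalization (-0.84) and a pseudocount of 5 (-0.93).

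Outer coat genes differed by less than the size of a call as deposited, from -0.82 for sec31a to 0.40 for sec13 over the whole course. Under median-of-ratios scaling sec13 passed it (1.07). For sec13, which also serves the nuclear pore, the levels were 75.2, 96.4 and 99.5 FPKM. For sec31a they were 64.1, 40.7 and 35.8 FPKM and for sec31b 29.7, 17.6 and 29.3 FPKM, none of them called in any comparison. The exit-site scaffold sec16a was low, at 2.01, 1.68 and 2.23 FPKM. The median over the COPII members was -0.64 in the first step, close to the -0.57 of all genes, and turned to 0.15 under median-of-ratios scaling. A SNARE of the same route, sec22b, had 34.6, 42.8 and 74.9 FPKM, called higher over the whole course (1.09) and in neither step. Its first step passed the size of a call under median-of-ratios scaling (1.09).

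The p24 family of cargo receptors rides in both kinds of vesicle. The tmed genes were taken by name, and whether each of them, tmed8 included, encodes such a receptor was not analysed here. Their summed level was 556, 909 and 916 FPKM. Of 8 members compared, tmed2 and tmed10 were called higher at NF16 and tmed8 lower. The levels of tmed2 were 63.7, 157 and 149 FPKM (1.29 in the first step), and those of tmed10 were 151, 343 and 351 FPKM (1.17). In contrast tmed8 had 35.6, 6.10 and 2.82 FPKM, with log2 differences of -2.37 and -0.89 in the 2 steps and -3.26 over the whole course. The second of these passed -1 under median-of-ratios scaling, quantile normalization, a pseudocount of 0.1 and the use of the highest transcript only. The remaining tmed genes were not called at NF16: tmed1 had 14.5, 29.9 and 45.2 FPKM, tmed4 34.9, 51.6 and 59.1 FPKM, and tmed5 23.03, 21.4 and 28.8 FPKM. For tmed1 the first step fell just short of the call at 0.99 and the whole course passed it at 1.57. The level of tmed7 was 75.0, 117 and 130.3 FPKM and that of tmed9 157, 183 and 149 FPKM. Under median-of-ratios scaling tmed1 (1.75), tmed4 (1.34), tmed7 (1.44) and tmed9 (1.03) passed the size of a call at NF16.

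The COPI coat forms retrograde vesicles at the Golgi. Of its 6 members compared, 5 had a difference above 0 in the first step and 1, copg2, below 0. The levels were 27.9, 80.8 and 112 FPKM for copa, 78.1, 155 and 177 FPKM for copb2, 71.9, 141 and 133 FPKM for cope, and 65.2, 124 and 142 FPKM for copg1. Of these only copa was called in the first step, and its log2 difference over the whole course was 1.97, while copb2 (0.98), cope (0.97) and copg1 (0.92) lay just under the size needed. These 3 passed it once the stages were rescaled to equal sums (1.11, 1.09 and 1.05). The zeta subunit copz1 had 114, 114.5 and 110.1 FPKM, with a first difference of only 0.009. The gene arcn1, outside the naming rule and read below with the COPI accessory list, had 78.1, 134 and 133 FPKM (0.77). The second gamma subunit, copg2, had 69.2, 32.2 and 30.4 FPKM, a log2 difference of -1.08 whose call was lost under all 3 other scalings and with a pseudocount of 5.

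KDEL receptors bind the retrieval signal at the end of ER residents such as calreticulin and return them in COPI vesicles. As a sum their level was 224, 199 and 162 FPKM. Singly, kdelr1 had 89.5, 131 and 111 FPKM, kdelr2 had 54.9, 19.96 and 21.6 FPKM, and kdelr3 had 79.3, 48.5 and 29.5 FPKM. At NF16 kdelr2 was called lower (-1.41) and over the whole course kdelr2 (-1.30) and kdelr3 (-1.40) were. These calls were lost under median-of-ratios scaling and quantile normalization.

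**Figure D3:**
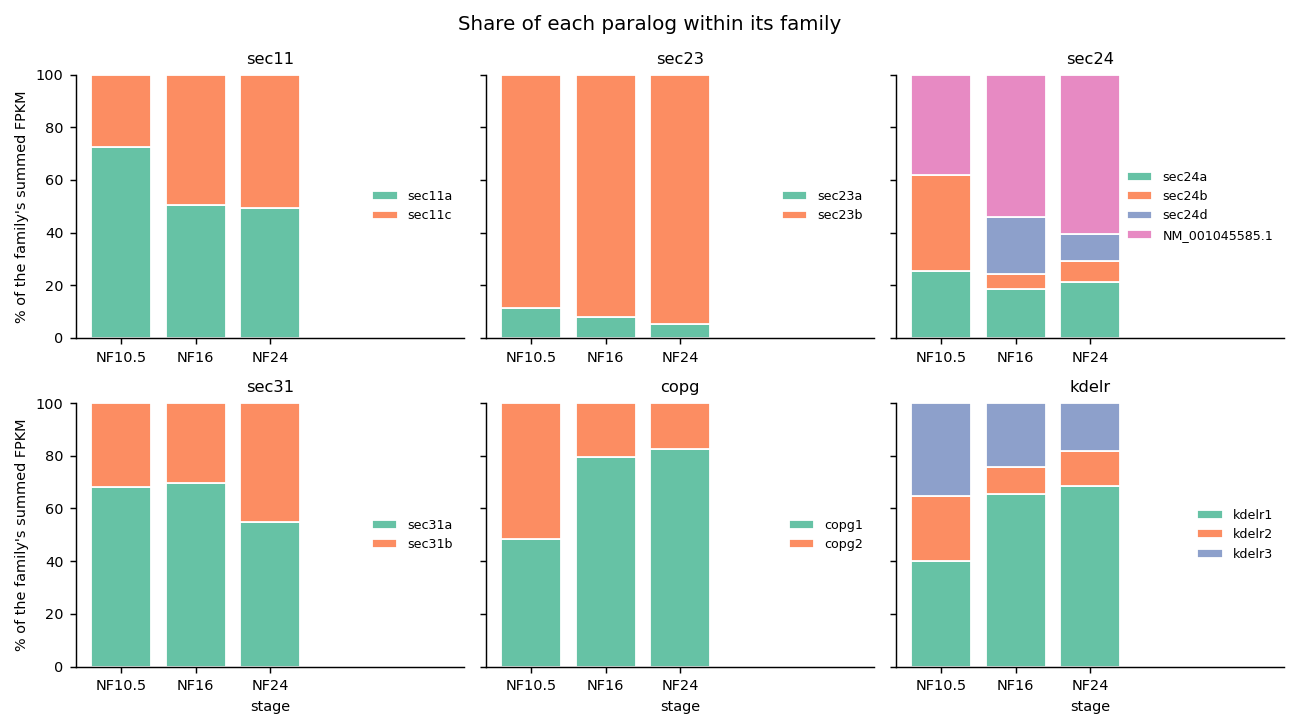
Share of each paralog in the summed FPKM of its family (y, percent, from 0) at each stage (x). The share of copg1 is 48.5% at NF10.5 and 79.4% at NF16, that of kdelr1 40.0% and 65.7%, and that of sec24b 36.2% and 5.80%; the sec24d name is drawn as the rows matched to sec24d and the row NM_001045585.1.

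Shares within a family do not depend on a scaling that multiplies a whole stage. By this measure the gamma COPI subunit went from copg1 at 48.5% and copg2 at 51.5% to 79.4% and 20.6% at NF16, and 82.4% and 17.6% at NF24. The kdelr1 share went from 40.0% to 65.7% and 68.5%. In the sec23 pair, sec23b already held 88.4% at NF10.5 and 94.8% at NF24. The sec31 pair differed late, with sec31b at 31.7%, 30.3% and 45.0%. As deposited, the paralog that gained share at NF16 in the sec11, copg and kdelr families differed by less than 1 in log2 size. In the same families sec11a, copg2 and kdelr2 were called lower. Under median-of-ratios scaling these calls were lost (-0.67, -0.29 and -0.63), while copg1 (1.72) and kdelr1 (1.34) passed the size of a call.

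Gene names hide part of this. The name sec24d covers 3 rows. The RefSeq gene table of assembly UCB_Xtro_10.0 puts XM_004911105.3 and XM_002934248.4 under sec24d and does not list NM_001045585.1 (it gives sec24d as an older name of sec24c). Taken alone, the rows matched to sec24d had 0.137, 29.4 and 16.5 FPKM, a log2 difference of 4.74. The row NM_001045585.1 had 67.2, 72.8 and 96.8 FPKM (0.11). So the matched sec24d rows held 0.0776% of the sec24 sum at NF10.5 and 21.8% at NF16, while sec24b went from 36.2% to 5.80%.

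The name tmed10 likewise covers 2 genes of the RefSeq table. The row NM_001007924.1, which that table assigns to tmed10l, had 2.07, 57.2 and 70.4 FPKM, a log2 difference of 4.25 at NF16 and 0.30 in the next step. The row assigned to tmed10 had 149, 285 and 281 FPKM, and its difference of 0.93 is under the size of a call. Reads shared by similar genes are divided by estimation, so the split between these rows is uncertain. With these names split, 12 of 56 members were higher at NF16, where 20.95% of all genes were, and 7 were lower, where 38.95% were.

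**Figure D4:**
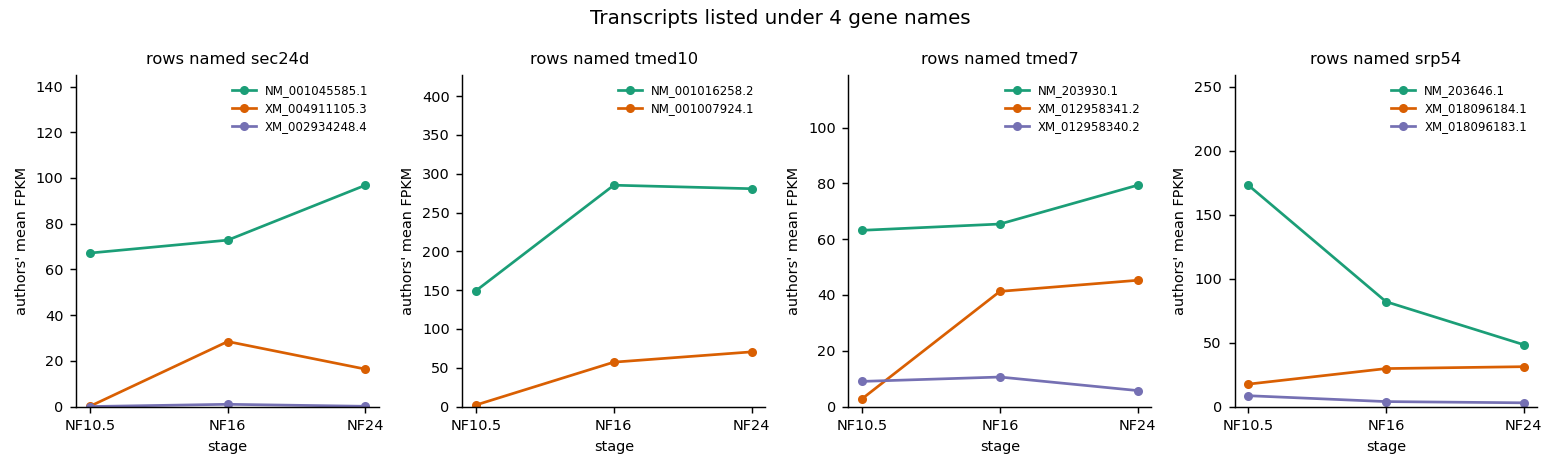
Authors' mean FPKM (y) by stage (x) for each row listed under sec24d, tmed10, tmed7 and srp54, on linear axes that start at 0. XM_004911105.3, NM_001007924.1 and XM_012958341.2 are below 3 FPKM at NF10.5 and between 28.4 and 57.2 FPKM at NF16.

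Of the members, 23 had more than 1 row, and 18 of these reached 10 FPKM at both stages of a comparison. In 0 of the 18 did the leading transcript give way to another with a trade of at least 30 percentage points. Smaller moves were seen in tmed7, srp54 and sec31a. In tmed7 the transcript XM_012958341.2 had 2.82, 41.3 and 45.3 FPKM, which is 3.76%, 35.2% and 34.7% of the gene, while NM_203930.1 had 63.2, 65.4 and 79.3 FPKM. Most of the difference in the tmed7 sum at NF16 thus lay in the transcript that was lowest at gastrula. In srp54 the leading NM_203646.1 held 86.9%, 71.0% and 58.7%, and XM_018096184.1 held 8.80%, 25.7% and 37.8% with 17.5, 29.7 and 31.2 FPKM. In sec31a the transcript XM_012960801.2 held 33.7%, 11.98% and 5.64%. By contrast the 2 transcripts of ssr1 kept close shares, XM_012964757.2 with 56.5%, 54.3% and 51.3%. What the transcripts encode was not analysed here.

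Among the regulators, xbp1 was abundant at gastrula and lower later. This transcription factor, activated by Ire1-dependent splicing of its mRNA, had 227, 143 and 101 FPKM, with log2 differences of -0.66 and -0.50 in the 2 steps and -1.17 over the whole course. That call was lost under median-of-ratios scaling (-0.49) and when stages were rescaled to equal sums (-0.98). The table lists 1 transcript for it, so its spliced form cannot be read here. The Ire1-type sensor ern2, which in mammals is found in mucus-producing epithelia, had 11.45, 9.25 and 10.9 FPKM and was not called. The membrane-bound factor creb3l1, which in mammals supports secretion of collagen, had 0.263, 2.06 and 3.78 FPKM. Its log2 difference was 1.27 at NF16 and 1.92 over the whole course, and with a pseudocount of 5 it was 0.42 and 0.74. Under quantile normalization the NF16 call was lost as well (0.80), while the call over the whole course held. The histone chaperone gene ssrp1 had 50.7, 47.9 and 29.0 FPKM.

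Genes of the pathway outside the naming rule were read from 10 lists, whose counts stand against the 20.9% of all genes called higher and 39.0% called lower at NF16, and the 6.91% and 4.84% at NF24 against NF16. Of 23 ER chaperones and helpers compared, 4 were called higher and 9 lower at NF16 against NF10.5 (median -0.75, turning to 0.01 under median-of-ratios scaling). At NF24 against NF16, 7 were higher and 0 lower (median 0.50). The shares of the first step, 17.4% higher and 39.1% lower, are near those of all genes, and the 30.4% higher of the second is above. The lower genes of the first step were led by the prolyl isomerase fkbp14 (-2.97), dnajc10 (-2.54), ppic (-2.30) and creld1 (-2.22). In the second step the ER Hsp70 hspa5 (BiP) had 107 FPKM at NF16 and 348 at NF24, a log2 difference of 1.70. Beside it stood the prolyl isomerase fkbp7, with 0.647 and 5.09 FPKM (1.89), hspa13 (1.62) and the Hsp70 relative hyou1, with 12.75 and 36.0 FPKM (1.43). The Hsp90 of the ER, hsp90b1, had 207, 110.2 and 157 FPKM.

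The list of stress sensors and factors had calls toward higher in the second step and, like most of the 10 lists, none toward lower. Of 13 compared, 2 were higher and 0 lower at NF24 against NF16 (median 0.41), namely chac1, with 32.7 and 197 FPKM (2.55), and atf6b (1.09). The transcription factor gene ddit3, known as CHOP, had 6.94, 13.8 and 28.5 FPKM, and its second difference of 0.99 was just short of a call. In the first step 3 were higher and 3 lower (median 0.19). The redox factor nfe2l2 (2.20), the ER-bound factor atf6 (1.67) and atf4 (1.18) were higher. The site-1 and site-2 proteases mbtps1 (-1.72) and mbtps2 (-1.57), which release Atf6, and the stress sensor eif2ak3 (-1.08) were lower. These first-step calls are as deposited and depend on scaling. Median-of-ratios scaling moves the median of all genes upward by 0.68 in that step, and took the member srp9 from -1.70 to -0.90.

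Degradation of misfolded ER proteins showed the lowest list median in the first step. Of 18 genes compared, 0 were higher and 9 lower at NF16 (median -1.03, and -0.25 under median-of-ratios scaling with 3 higher and 1 lower), led by the ubiquitin ligase rnf5 (-2.06), nploc4 (-1.70), the conjugating enzyme ube2j2 (-1.66) and ube2j1 (-1.53). At NF24 against NF16 only derl2 was called, higher (1.13). In the glycan trimming list 2 of 16 were higher and 6 lower at NF16 (median -0.49, turning to 0.22 under median-of-ratios scaling). There the lectin os9 (-2.33), the glucosidase II subunit prkcsh (-1.82) and uggt2 (-1.76) were lower, and the mannosidase man1a1 (1.73) higher. The catalytic glucosidase II subunit ganab was called higher at NF24 against NF16 (1.04).

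Oligosaccharyltransferase, which works beside the channel, had 1 of 8 genes higher and 0 lower at NF16 (median 0.44). The called gene was ostc, with 53.1, 122 and 128 FPKM (1.19), and 0 were called in the next step, where stt3a and tmem258, highest in mean over the 3 stages, had 154 and 134 FPKM at NF24. Thiol oxidation partners had 3 of 17 higher and 6 lower at NF16 (median -0.91). The disulfide isomerase relatives agr2 (6.03) and agr3 (4.19) and selm (3.69) were higher, and the sulfhydryl oxidase qsox1 was lower (-2.67 and, in the second step, -1.25). The NF16 counts and medians of both lists are as deposited and depend on scaling. Median-of-ratios scaling moves the median of all genes upward by 0.68 in that step, and took the member p4hb from 0.89 to 1.70.

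A list of the signal recognition particle's receptor genes and membrane insertion factors had 1 of 19 higher and 7 lower at NF16. Its median was -0.39, turning to 0.25 under median-of-ratios scaling. The receptor genes srpra (0.46) and srprb (-0.17) were not called. On this list emc3 (-2.41), emc8 (-2.20), mmgt1 (-1.99) and sgta (-1.71) were lower. In the second step 0 were called, and mmgt1 and tmco1, highest in mean over the 3 stages, had 62.1 and 63.5 FPKM at NF24. ER exit factors had 2 of 15 higher and 6 lower at NF16 (median -0.56, turning to 0.21), with tango2 (-3.13), ctage5 (-1.85), ergic1 (-1.62) and cnih1 (-1.52) leading, and ergic1 higher in the second step (1.04). Golgi tethers, SNAREs and COPI accessory genes had 3 of 45 higher and 15 lower at NF16 (median -0.57, turning to 0.15), with a median at that of all genes and 33.3% called lower. Here trappc12 (-2.20), gbf1 (-2.10), the Golgi SNARE stx5 (-2.02) and trappc6b (-1.88) were lower, and bet1 (1.18), trappc3 (1.09) and trappc2 (1.04) were higher in the second step.

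**Figure D5:**
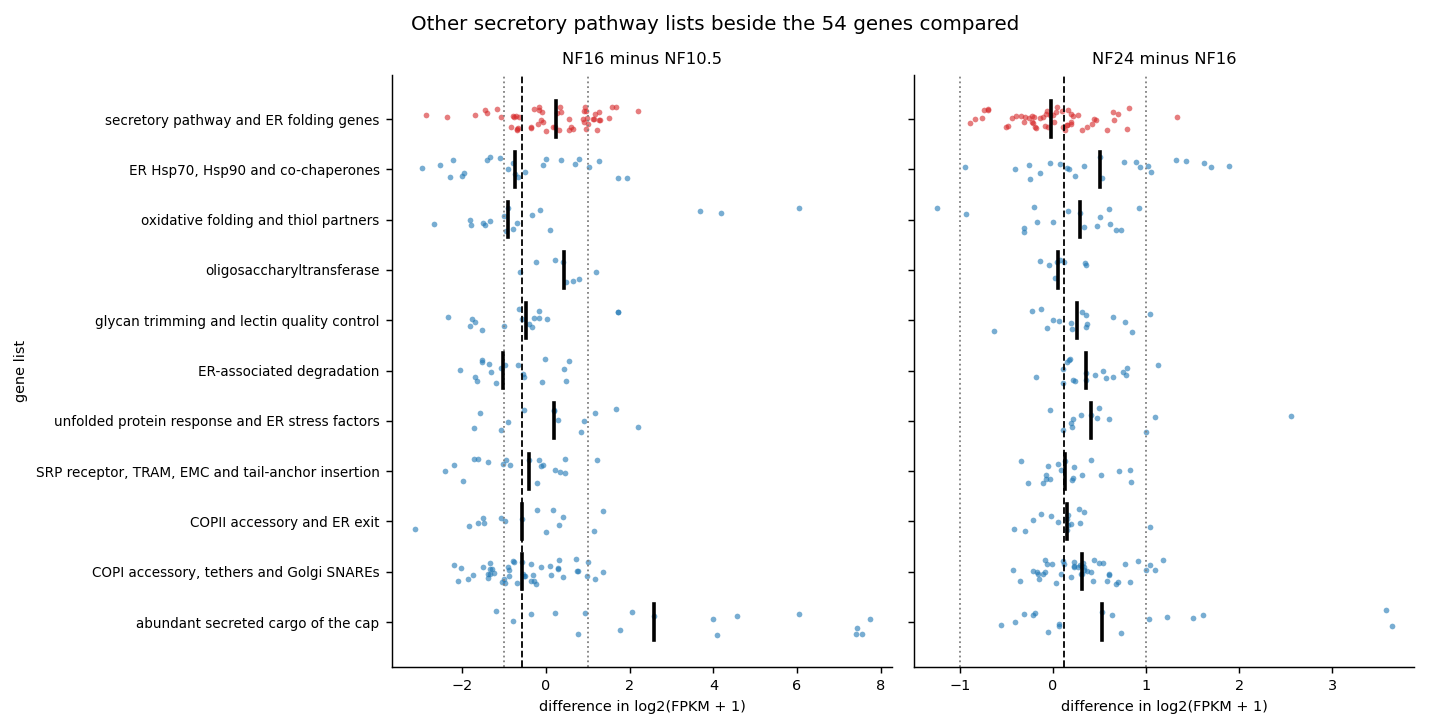
Difference in log2(FPKM + 1) (x) for each gene compared in 10 pathway lists (blue) and the 54 members (red), by list (y), with list medians as black bars and the median of all genes as a dashed line. Points are spread vertically for display only. The medians of the chaperone list are -0.75 and 0.50, and those of the members 0.24 and -0.02.

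A list of secreted cargo genes was chosen with their abundance in these caps known, so its direction is no independent evidence. On it, 11 of 17 were higher and 1 lower at NF16 (median 2.57), and 6 were higher and 0 lower at NF24 against NF16 (median 0.52). The summed cargo was 180.03, 2696 and 4611 FPKM, or 0.0311%, 0.507% and 0.911% of all FPKM. Over the same stages the 59 members had 0.909%, 1.497% and 1.39%. The lectins itln1 (7.73) and itln2 (7.42), otog (7.55) and fcgbp (7.40) led the first step. The second was led by prss29 (3.64), crisp2 (3.57), col17a1 (1.61) and itln2 (1.502), but col17a1 was low, with 0.17 and 2.56 FPKM.

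Tissue markers differed between stages beside all of these comparisons. Their counts at NF16 stand beside 20.9% of all genes called higher and 39.0% called lower. Of the 12 epidermal markers, all above 1 FPKM at each stage, 9 were higher and 0 lower at NF16. Their sums were 0.627%, 7.11% and 7.31% of all FPKM. At NF16 the keratins krt5.7, with 17079 FPKM, and krt, with 12721 FPKM, held most of that sum. The markers epcam (0.24), grhl3 (0.30) and tfap2a (0.72) were not called. The cement gland list, a secretory organ, had 4 of 4 compared genes higher at NF16 and sums of 52.7, 867 and 677 FPKM, of which agr2, also on the cargo and thiol lists, had 9.27, 672 and 539.9 FPKM. The mesoderm and muscle list had 5 of 7 higher and sums of 4.61, 162 and 252 FPKM. The endoderm list had 5 of 6 lower and sums of 152, 15.4 and 14.6 FPKM. The neural list had 4 of 10 higher and 2 lower with 245, 95.1 and 80.7 FPKM, of which sox2, called lower, had 199, 37.3 and 22.1 FPKM. The notochord list had 1 of 4 higher and 2 lower with 76.5, 34.1 and 20.0 FPKM. Of the hatching gland list 2 genes were measured, pax3 with 8.38, 5.94 and 5.32 FPKM and ctsh listed at 0, and the blood list had 1 of 6 higher and 2 lower with at most 18.0 FPKM. The part of these cells in the differences of the secretory genes was not tested.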

How the data were processed

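Animal cap RNA was depleted of ribosomal RNA and sequenced as directional paired-end libraries, per the labels' protocols. The submitters' processing notes list the tools STAR 2.4.2a and RSEM 1.3.0, with no role. The genome build is not given in the sources used here. The authors deposited FPKM for 35047 rows (35028 transcripts), 1 column per stage per the file headers. All values above 0 are multiples of 0.01 divided by 3, to within 0.01 of a step, so each is taken as a mean of 3 replicates. Depth is unknown, and the limma fit planned for replicate columns gave way to the planned rule of size.

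FPKM was summed per gene and compared as log2(FPKM + 1) with Python 3.11.15, pandas 2.3.3 and numpy 2.4.6. A call needs a difference of 1 and at least 1 FPKM at some stage. FPKM is per length, so levels can be set between genes. The rule was run on simulated data with planted differences larger than its cutoff, which checks the code and not the error of these values. Alternatives were 3 scalings, 2 pseudocounts, 2 filters, a 1.5-fold call and the highest transcript only, and, chosen after seeing the data, splitting sec24d and tmed10, dropping repeated rows (19) and dropping ssrp1. Members, roles, lists and tests were chosen with earlier results of these data known. Text names every member. From each list it names up to 4 genes with the largest called difference per consecutive step, or the most abundant where none was called. Named in addition, with their values known, were hsp90b1, ddit3, atf4, eif2ak3, arcn1, srpra and srprb. RefSeq's gene table (UCB_Xtro_10.0) matched 80 of the 103 member rows and gave names only. Promoter and protein sequences were not analysed here.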

Additional observations from a re-analysis of the deposited data

How the results depend on the processing

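No paired analysis was possible because the table has 1 mean column per stage, and leaving out replicates was not run for the same reason. Counts of members move with scaling and with the size of the call. At NF16 against NF10.5, 11 members were higher as deposited, 28 under median-of-ratios scaling, 19 with stages rescaled to equal sums and 21 at 1.5-fold. The 7 lower were 2 under median-of-ratios scaling, 3 under quantile normalization and 15 at 1.5-fold. Among all genes, 20.9% were higher as deposited, 30.2% under median-of-ratios scaling, 24.03% with stages rescaled to equal sums and 26.98% at 1.5-fold. The share of all genes lower was 39.0% as deposited, 20.5% under median-of-ratios scaling, 29.98% under quantile normalization and 49.66% at 1.5-fold. At NF24 against NF10.5, the 15 higher were 25 under median-of-ratios scaling and 24 at 1.5-fold. The 13 lower were 3 under median-of-ratios scaling and 7 under quantile normalization. Of all genes, 25.4% were higher as deposited, and 33.4% and 31.6% under the first pair of settings. As deposited 36.9% were lower, and 23.2% and 32.0% under the second pair. At NF24 against NF16, the 1 higher was 6 at 1.5-fold, where 20.6% of all genes were higher. The 0 lower were 6 at 1.5-fold, where 12.6% of all genes were lower. They were 1 under median-of-ratios scaling, quantile normalization, a pseudocount of 0.1 or the highest transcript only, where 5.26% to 8.33% of all genes were lower. The other 56 counts stayed within 1.5 times. Of the calls at NF16 against NF10.5, 8 of 11 higher and 2 of 7 lower held under all settings tried for that gene. Of those at NF24 against NF10.5, 13 of 15 and 3 of 13 did. The settings were 9 or, for creb3l1, 8. Among them the 1.5-fold call and the filters do not alter a difference, so they could not undo a call. The highest transcript could do so only for genes with more than 1 row. No called difference changed sign. Beyond the scalings themselves the cause was not tested. Without counts or replicates, neither depth nor spread limits any value in a way that can be stated.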
